A study of Mus musculus with 12 samples.

Results

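The cytosolic ribosomal protein genes were taken as the protein-coding rows whose symbol is Rps or Rpl followed by a number, together with Rplp0, Rplp1, Rplp2 and Rpsa and without the Rps6k kinase genes. They numbered 92 of the 43346 rows in the deposited table. Of these, 31 encode proteins of the small subunit and 46 encode proteins of the large subunit, called the 77 core genes here. A further 7 are paralogs (Rpl22l1, Rps27l, Rps27rt, Rpl39l, Rpl10l, Rpl3l and Rpl36al), 6 are retrocopies annotated as protein-coding (such as Rps12-ps3 and Rpl10-ps3) and 2 share the naming pattern but are other proteins (Rps19bp1 and Rpl7l1).

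RNA was sequenced from mouse embryonic stem (ES) cells of 4 groups with 3 libraries each. B6 is C57BL/6J and D2 is DBA/2J, a pair of inbred strains. B6-13D2, labelled B6.D2-(rs30079041-rs51756099)/Bakr, carries a D2 segment of chromosome 13 on the B6 background, and D2-13B6, labelled D2.B6-(rs29224292-rs13469455)/Bakr, carries a B6 segment on the D2 background. The series design text gives another end marker for the segment of D2-13B6. All groups grew in medium with 15% serum, LIF, 1 µM PD0325901 (a MEK inhibitor) and 3 µM CHIR99021 (a GSK3 inhibitor), a state that holds ES cells close to naive pluripotency. The protocol describes independent cultures of 1 cell line for each strain, so strain and line cannot be told apart and the spread between libraries is that between cultures. The titles call the libraries technical replicates, and B6 replicate 3 has another line name than B6 replicates 1 and 2. For D2, the line in the titles differs from the one given as the cell line. The segment lines ask which expression differences follow the chromosome 13 segment and which follow the background.

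A cytosolic ribosome joins a small subunit, which reads the messenger RNA, to a large subunit, which forms the peptide bond. Its proteins are made in matched amounts from genes scattered over the genome, and most of the messenger RNAs begin with a run of pyrimidines at the cap that places their translation under the mTOR pathway. The genes have left many processed pseudogenes, copies of the spliced RNA inserted elsewhere, so a read from the coding sequence can match several loci. The deposited values are expected counts, in which such reads are divided among the matching loci.

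A few sequences show how far loci can be told apart. The coding sequences of Rpl39, an X-linked large subunit gene, and of its autosomal paralog Rpl39l have 156 bases each and are 85.3% identical in GENCODE M21. Their 23 differing bases are in capitals:
Rpl39: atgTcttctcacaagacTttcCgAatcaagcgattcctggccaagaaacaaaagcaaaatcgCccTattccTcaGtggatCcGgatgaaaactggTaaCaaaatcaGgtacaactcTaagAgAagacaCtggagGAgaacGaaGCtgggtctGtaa
Rpl39l: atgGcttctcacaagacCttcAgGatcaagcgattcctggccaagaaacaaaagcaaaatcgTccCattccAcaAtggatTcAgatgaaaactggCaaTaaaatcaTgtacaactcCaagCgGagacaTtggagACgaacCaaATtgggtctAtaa
Rpsa and its processed pseudogene Rpsa-ps10 differ at only 6 of 885 aligned bases. This stretch, positions 160 to 219 of the coding sequence counted from the start codon, holds 2 of the 6, T210C and C219T, in capitals:
Rpsa: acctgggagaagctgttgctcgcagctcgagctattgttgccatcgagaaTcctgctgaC
Rpsa-ps10: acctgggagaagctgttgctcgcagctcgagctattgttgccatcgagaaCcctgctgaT
Rps27 and the retrogene Rps27rt share their coding sequence of 255 bases without any difference. Rpl5 and Gm15500 (894 bases) and Rpl12 and Gm10275 (498 bases) are also identical over the coding sequence.

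Libraries held 22184196 to 36411799 expected counts. The test was edgeR's quasi-likelihood test on rounded counts with Benjamini-Hochberg adjustment over 17148 genes, and a gene with an adjusted p under 0.05 is said to be called. CPM are counts scaled to a common library total with TMM factors. Of the 92 genes, 88 were abundant enough to be tested. The other 4 were Rps27, which had a rounded count of 0 in every library, and the retrocopies Rpl36-ps4, Rpl36a-ps1 and Rpl9-ps1, with at most 1 count in a library. Markers of ES cells were present: all 8 listed (Pou5f1, Nanog, Sox2, Klf4, Esrrb, Zfp42, Tdgf1 and Dppa5a) were tested. All 8 listed fibroblast markers were tested too, and none was at 0 in every library. Their summed level, carried mainly by Col1a1 and Col1a2, was highest in D2 (14130 to 16920 CPM), then came B6 (9356 to 10160), D2-13B6 (7713 to 8038) and B6-13D2 (3085 to 3173). The summed markers of primitive endoderm, neuroectoderm, mesoderm and trophoblast each stayed at 62.7 CPM or less in every library. Columns of both congenic lines carry a prefix in the table that the parental columns lack, so congenic status and any batch behind that prefix cannot be told apart.

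The ribosomal protein genes together took 5.04%, 4.87% and 5.31% of the counts in the B6 libraries. In B6-13D2 the shares were 5.71%, 6.26% and 5.89%. In D2 they were 4.41%, 4.38% and 4.12%, and D2-13B6 had 4.49%, 4.51% and 4.54%. The lowest B6 library therefore lay above the highest of both D2-background groups, and the 3 B6-13D2 libraries lay above all others. The D2 and D2-13B6 libraries did not overlap but lay close together, with means of 4.31% ± 0.158 and 4.51% ± 0.0272 (SD, n = 3). The mean in B6 was 5.07% ± 0.219 and in B6-13D2 5.95% ± 0.28 (SD, n = 3). The ratio of small to large subunit counts was 0.698 in B6, 0.689 in B6-13D2, 0.675 in D2 and 0.657 in D2-13B6, with SDs of at most 0.00442. These ratios use the named rows, so they also depend on how reads were divided with copies, as for Rpl5 (large) and Rpsa (small) below. A ratio with copies added was not computed here.

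**Figure D1:**
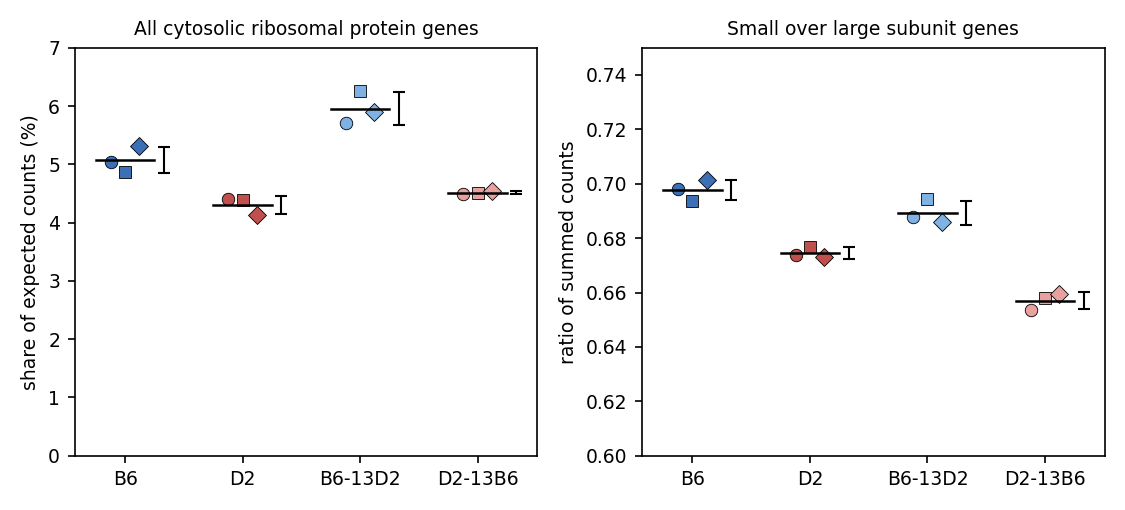
Share of expected counts held by the 92 cytosolic ribosomal protein genes (left, %) and ratio of summed small to large subunit counts (right, axis from 0.60) in each library. Circles, squares and diamonds are replicates 1, 2 and 3, horizontal lines are group means and bars are SDs (n = 3); the shares of the B6-13D2 libraries, 5.71% to 6.26%, lie above those of all other libraries.

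D2 had the lowest share and the highest fibroblast marker level, and B6-13D2 the reverse; between them, D2-13B6 was lower than B6 in both. The summed ES cell markers put the groups in the same order as the share, from D2 (3068 to 3150 CPM) through D2-13B6 (3856 to 3923) and B6 (4289 to 4657) to B6-13D2 (4907 to 5231). In bulk RNA, fewer cells of a type and less RNA per cell cannot be told apart, and the part of these markers in the differences between groups was not tested. Within B6-13D2 the summed fibroblast markers ran from 3085 to 3173 CPM and the ribosomal protein share from 5.71% to 6.26%. These ranges describe the spread between libraries of the same group and do not bear on the differences between groups.

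Individual libraries also moved the core genes together. In B6-13D2 replicate 2, 75 of the 76 tested core genes lay above the mean of the other libraries of the group, with a median deviation of 0.155 in log2 CPM. In B6 replicate 3, the one labelled as another line, 68 of 76 lay above that mean, with a median deviation of 0.123. In D2 replicate 3 only 14 of 76 did, with a median deviation of -0.0808, and in B6-13D2 replicate 1 only 6 of 76, with -0.115. The D2-13B6 libraries were the most even, with median deviations of -0.00638 to 0.0174.

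Per kilobase of transcript, Rps2, a small subunit protein near the entry of the messenger RNA channel, had the highest level, a mean of 2254 CPM per kb over all libraries. Rplp1 and Rplp0, which with Rplp2 form the stalk that recruits elongation factors, followed with 2000 and 1766 CPM per kb. The lowest tested levels were those of the retrocopy Rpl9-ps6 (0.514), of Rpl3l, the striated muscle paralog of Rpl3 (0.655), and of Rpl10l, the paralog that stands in for X-linked Rpl10 in male germ cells (29.4). Rpl3, by comparison, stood at 1184 CPM per kb and Rpl10 at 743.

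D2 against B6 compares the parental strains. Most ribosomal protein genes were lower in D2: 70 of 88 were called lower and 4 higher, a total of 74, against 60.0% of all genes tested called, 30.3% lower and 29.8% higher. Their median log2 fold change was -0.27, beside 0.01 over all genes tested. With the other scalings and filters tried, 58 to 80 were called lower and 4 higher, and DESeq2 called 52 lower and 4 higher. Both subunits took part, with 27 of 30 small subunit genes and 39 of 46 large subunit genes called lower and medians of -0.30 and -0.26. The libraries of the groups did not overlap for 71 of 88, against 62.0% of all genes tested.

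An example was Rps6, the substrate of the S6 kinases, with 1280, 1308 and 1355 CPM in B6 and 1001, 1023 and 1024 in D2. Like the other genes of this paragraph, it fell by more than the median of the core genes (-0.28). All B6 libraries lay above all D2 libraries, and the log2 fold change was -0.37 ± 0.032 (SE; edgeR adjusted p = 2.25e-08). Rps2 fell by 0.38 (SE 0.038), and so did Rplp0 (-0.38, SE 0.043). Rps19, the gene most often mutated in Diamond-Blackfan anaemia, had 455, 420 and 484 CPM in B6 and 374, 389 and 323 in D2, a log2 fold change of -0.32 ± 0.063 (SE). Rpl13a and Rps18, both used as reference genes for normalisation in quantitative PCR, fell by 0.39 and 0.33. Rpl11, which with Rpl5 binds Mdm2 and so links ribosome assembly to p53, fell by 0.31 (SE 0.052).

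The largest falls among abundant genes with separate groups were those of Rpsa (-1.001), Rpl12 (-0.69), Rps28 (-0.55), Rpl22l1 (-0.54) and Rpl7 (-0.43). Rpl7, whose row held 99.99% of its sum with rows matching its coding sequence, had 1104, 1104 and 1140 CPM in B6 and 822, 830 and 833 in D2. That percentage shows how reads were divided, not where they came from. The D2 values were nearly equal and lay far below the B6 values (SE 0.032, edgeR adjusted p = 2.98e-09). Called higher in D2 were Rpl39l (2.29), Rpl5 (2.01), Rpl10l (0.25) and Rps19bp1 (0.16), a nucleolar partner of Rps19. Among the 14 genes not called were Rplp1 (-0.22, edgeR adjusted p = 0.0508), Rpl36, Rpl24 and Rpl38.

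**Figure D2:**
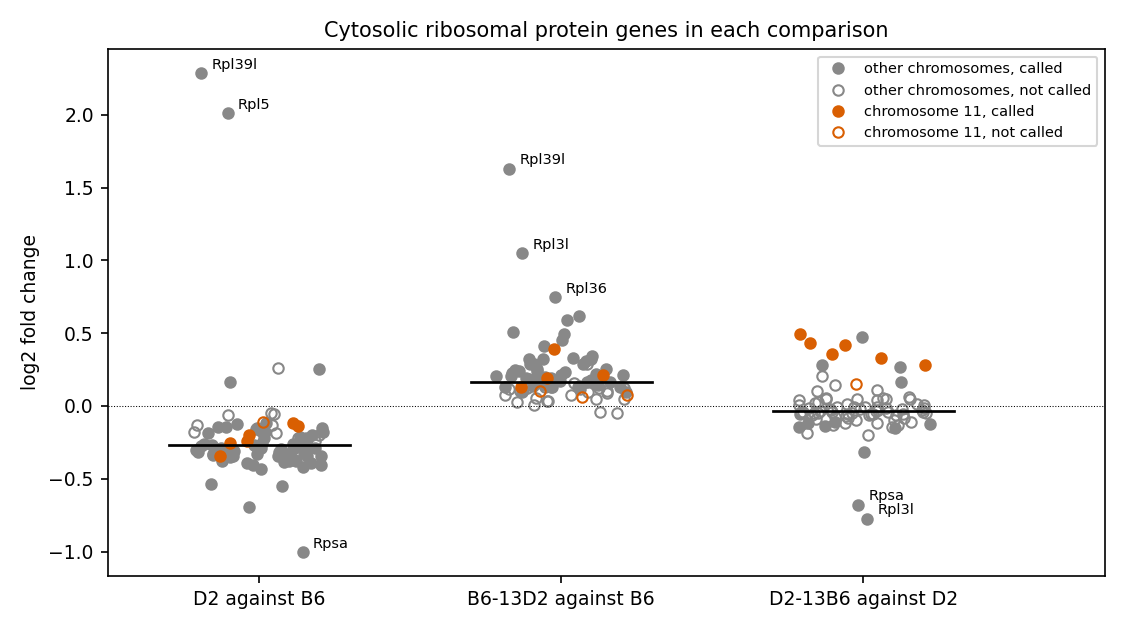
Log2 fold change (vertical axis) of the tested cytosolic ribosomal protein genes in 3 comparisons, 1 point per gene, filled where called by edgeR at an adjusted p under 0.05 and orange for genes on chromosome 11; black lines are medians and horizontal scatter has no meaning. Rpl9-ps6, near 0 counts in several libraries, is left out of the plot. Most points lie below 0 for D2 against B6 and above 0 for B6-13D2 against B6. The orange points of D2-13B6 against D2 all lie above 0, as do some grey points, of which Rpl10l (0.48) is the highest.

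The values of several named genes depend on how reads were divided with copies. Rpl5 (ENSMUSG00000058558, chr5:107900502-107909005, GRCm38) had 95.3, 97.3 and 96.2 CPM in B6 and 363, 385 and 417 in D2. Its copy Gm15500, a transcribed processed pseudogene on chromosome 7 with the identical coding sequence, ran the other way, from 957, 1028 and 1047 CPM in B6 to 446, 456 and 460 in D2. When every non-coding row matching the coding sequence was added to Rpl5, the sums were 1074, 1151 and 1167 CPM in B6 and 825, 856 and 894 in D2. The direction for Rpl5 thus turned from 2.01 to -0.40 (SE 0.038, edgeR adjusted p = 6e-08), and Rpl5 moved into the range of the other core genes. The row named Rpl5 held 8.51% of that sum in B6 and 45.1% in D2.

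Rpsa, also known as the precursor of a laminin receptor, had 366, 349 and 414 CPM in B6 and 199, 191 and 174 in D2. Rpsa-ps10 held 1736 to 1908 CPM in B6 and 1424 to 1467 in D2, far more than Rpsa itself. Summed with its matching rows, Rpsa fell by 0.44 (SE 0.04), less steeply than the named row (-1.001). Rpl12, part of the base of the stalk, fell by 0.69 as named and by 0.43 (SE 0.036) when summed, since Gm10275 took 851 to 904 CPM in B6 against 118 to 137 for Rpl12. Rps28 had 73.7, 104 and 113 CPM in B6 and 64.3, 66.5 and 67.9 in D2; its log2 fold change moved from -0.55 to -0.36 in the sums. Over the 76 tested core genes the SD of the log2 fold changes was 0.296 for the named rows and 0.0878 for the sums, which ran from -0.44 to -0.11. All 76 sums thus had a log2 fold change below 0, and 69 were called lower while 7, Rpl38 among them, were not called.

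**Figure D3:**
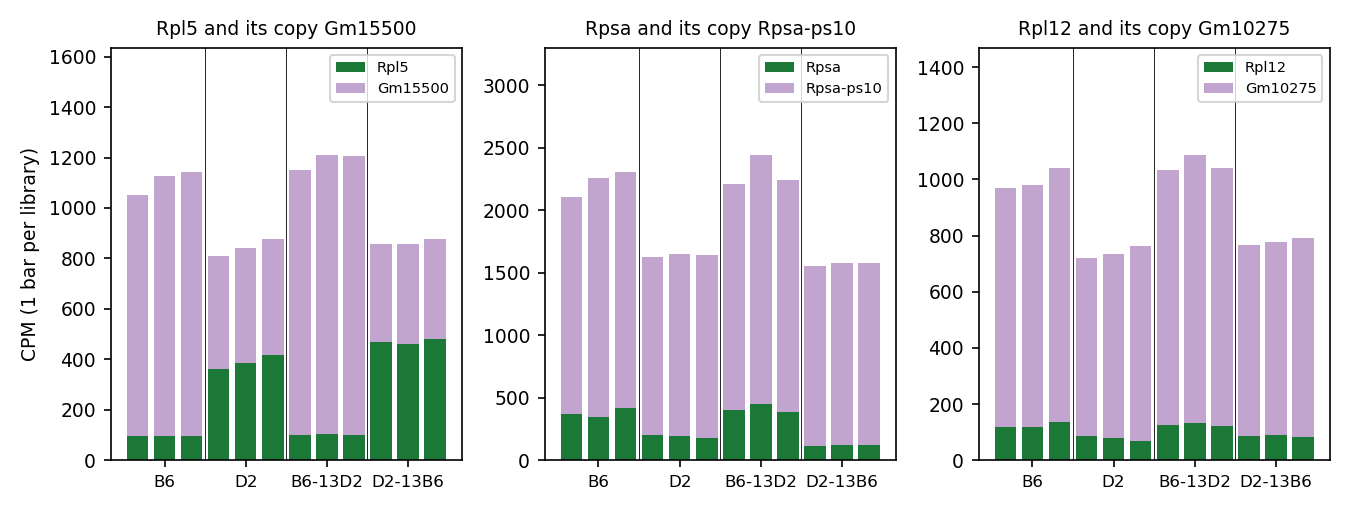
CPM of Rpl5, Rpsa and Rpl12 (green) and of the pseudogene row holding most of their shared reads (lilac), stacked, 1 bar per library in the order of replicates 1 to 3. The green part of Rpl5 grows from B6 to D2 while the stacked total falls; in the other panels the named gene is the small part of each bar.

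Rps27, a small subunit protein with a zinc finger, shows the limit of this division. Its own row was at a rounded count of 0 in all 12 libraries, and Rps27rt on chromosome 9, identical in coding sequence, held 176 to 282 CPM. Rps27rt had 219, 216 and 255 CPM in B6 and 190, 193 and 176 in D2, a log2 fold change of -0.30 ± 0.068 (SE). Which of these loci the RNA came from was not tested. In all, 74 of the 92 genes had at least 1 matching row, and 18 of the 88 tested genes had counts within 1e-06 of a whole number in every library. Rps27rt is one of these, so whole counts do not show that a row shares no reads.

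Paralogs were set beside their partners. Rpl39l on chromosome 16 (chr16:10170226-10174911, GRCm38), known for its expression in testis, had whole counts and no matching row. It stood at 9.27, 8.69 and 9.60 CPM in B6, at 27, 29.8 and 28.5 in B6-13D2, at 45.0, 47.3 and 41.6 in D2 and at 55.6, 50.7 and 55.8 in D2-13B6. The 4 groups did not overlap. Its log2 fold change was 2.29 ± 0.071 for D2 against B6, 1.63 ± 0.074 for B6-13D2 against B6 and 0.27 ± 0.055 for D2-13B6 against D2 (SE; edgeR adjusted p = 2.79e-14, 2.18e-12 and 0.000382). Rpl39 itself had 199, 179 and 213 CPM in B6 and 174, 173 and 142 in D2, a fall of 0.27 (SE 0.09). Both congenic lines therefore had more Rpl39l than the parental strain of their background.

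Rpl22l1, the paralog whose RNA Rpl22 protein is known to repress, had 76.6, 68.6 and 86.2 CPM in B6, 105, 135 and 114 in B6-13D2, 60.8, 54.9 and 43.1 in D2 and 49.9, 50.4 and 50.3 in D2-13B6. B6-13D2 lay above all other libraries. It fell in D2 against B6 (-0.54 ± 0.1 SE) and rose in B6-13D2 against B6 (0.62 ± 0.099 SE), while Rpl22 moved the same way by -0.40 and 0.16. Rpl10l had 22.3, 24.7 and 25.6 CPM in B6, 27.8, 27.2 and 26.3 in B6-13D2, 28.6, 28.9 and 29.0 in D2 and 38.9, 39.9 and 41.6 in D2-13B6. D2-13B6 stood above the rest (0.48 ± 0.051 SE against D2). Rpl10 had log2 fold changes of -0.17, 0.02 and 0.01 in the same order of comparisons, of which only the first was called.

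Rpl36al rose in both congenic comparisons, by 0.25 ± 0.07 (SE) on the B6 and 0.17 ± 0.069 (SE) on the D2 background, whereas Rpl36a rose in the former only (0.33 ± 0.056 SE) and had -0.08 in the latter, not called. Rps27l, a p53 target, had -0.05 in D2 against B6, not called, and fell in D2-13B6 against D2 (-0.15 ± 0.056 SE). Rpl3l lay at 0.476 to 2.05 CPM over all libraries, too low for its fold changes to be compared with those of Rpl3. Coding sequence identity within these pairs ran from 66.1% for Rpl22 and Rpl22l1 to 87.9% for Rpl36a and Rpl36al.

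**Figure D4:**
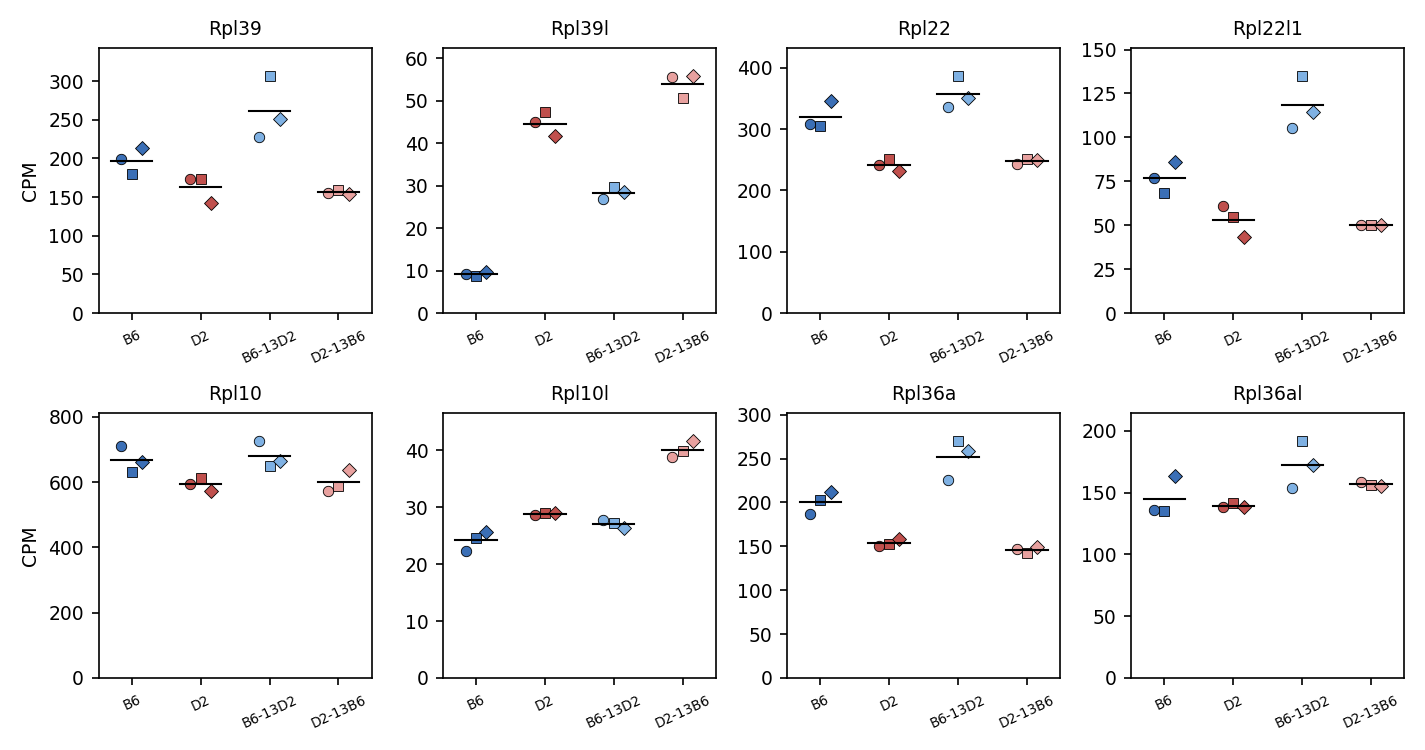
CPM of 4 core genes and their paralogs in each library (circles, squares and diamonds are replicates 1, 2 and 3; lines are group means; every vertical axis starts at 0). Rpl39l rises from 8.69 to 9.60 CPM in B6 to 41.6 to 47.3 in D2 while Rpl39 falls.

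B6-13D2 against B6 gives the change with the D2 segment on the B6 background. Of 88 genes tested, 57 were called higher and 0 lower, against 58.3% of all genes called, 25.4% higher and 32.9% lower. Altogether 85 of the 88 log2 fold changes were above 0, and their median was 0.16 beside -0.04 over all genes tested. By edgeR 67 genes were higher and 0 lower at an unadjusted p under 0.05, and DESeq2 called 75 higher and 0 lower. With RLE size factors 78 were called higher, and with library totals only 79. Small subunit genes were called higher in 19 of 30 cases and large subunit genes in 32 of 46. The libraries did not overlap for 46 of 88, against 63.2% of all genes tested.

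The largest rises among abundant genes after Rpl39l were those of Rpl36 (0.74), Rpl22l1 (0.62), Rpl24 (0.59) and the retrocopy Rps12-ps3 (0.50). Rpl36 had 96.5, 115 and 108 CPM in B6 and 146, 211 and 178 in B6-13D2, with no overlap (SE 0.13, edgeR adjusted p = 6.81e-05). Rpl24, the gene mutated in belly spot and tail mice, had 148, 157 and 145 CPM in B6 and 173, 251 and 254 in B6-13D2. Summed with their matching rows, Rpl36 rose by 0.47 (SE 0.071) and Rpl24 by 0.21 (SE 0.051), so the named rows gave larger changes than the sums. Rpl3 had 1718, 1668 and 1794 CPM in B6 and 1915, 2029 and 1958 in B6-13D2, and every B6-13D2 library lay above every B6 library (0.19 ± 0.033 SE). Rplp0 had the lowest value of the core genes, -0.05 ± 0.043 (SE), and was not called.

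Shorter genes had larger log2 fold changes. Across the 76 tested core genes, Spearman's rho between log2 fold change and coding length was -0.563. The 23 genes with under 400 coding bases had a median of 0.25 and the 53 longer ones 0.14; among other genes the medians were 0.08 for 677 short and -0.05 for 14224 long ones. Rps29 (171 coding bases), Rpl39 (156) and Rpl38 (213) had 0.50, 0.41 and 0.39. The same relation was seen inside the group, between B6-13D2 replicate 2 and the other libraries of the group, with a rho of -0.731. In D2 against B6 the rho was -0.185 and in D2-13B6 against D2 it was 0.1. The part of that library in the relation with length was not tested. Without B6-13D2 replicate 2 the count of genes called higher was 40, and without B6 replicate 3 it was 74.

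**Figure D5:**
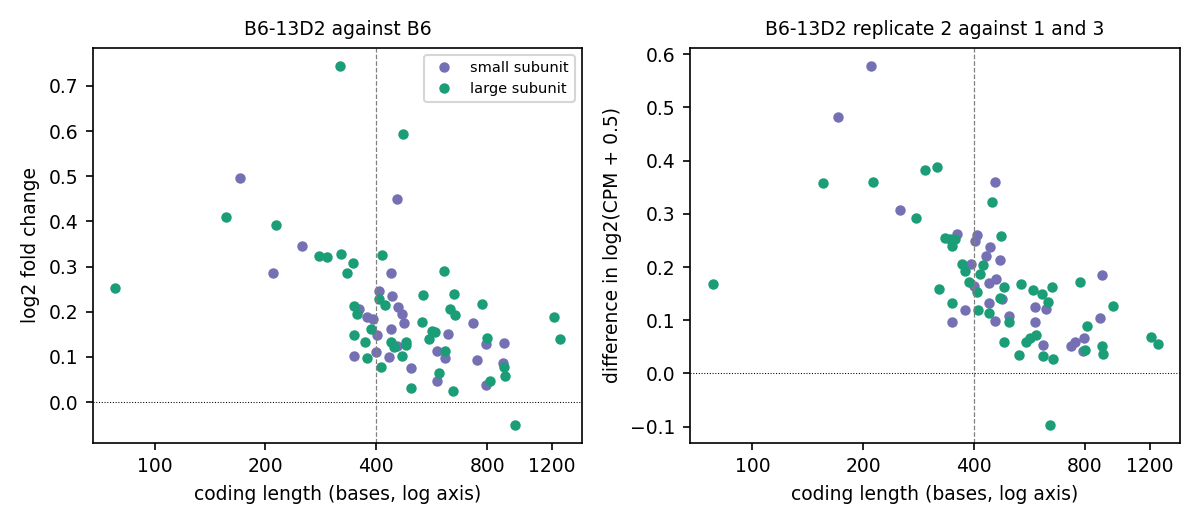
Coding length of the 76 tested core genes (bases, log axis) against the log2 fold change in B6-13D2 against B6 (left) and against the difference in log2(CPM + 0.5) between B6-13D2 replicate 2 and the mean of replicates 1 and 3 (right); the dashed line marks 400 bases. In both panels the points fall from left to right, with rho of -0.563 and -0.731.

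D2-13B6 against D2 gives the change with the B6 segment on the D2 background. Only 20 of 88 genes were called, 11 higher and 9 lower, against 57.3% of all genes called, 27.6% higher and 29.7% lower. Their median was -0.03 beside 0.00 over all genes tested, and the libraries did not overlap for 33 of 88, against 62.9% of all genes tested. The split was 21 higher and 1 lower with library totals only, and 11 higher and 9 lower with RLE size factors. Leaving out B6 replicate 3, D2 replicate 3 and B6-13D2 replicate 2, which stood apart in these same genes, gave 12 higher and 32 lower. Without D2-13B6 replicate 3 alone, 13 genes were called.

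The rises lay mostly on chromosome 11. Of the 7 tested genes there, 6 were called higher: Rpl26 (0.50), Rps27a (0.43), Rpl23a (0.42), Rpl19 (0.36), Rpl23 (0.33) and Rpl38 (0.28). Rpl26 had 458, 449 and 478 CPM in D2 and 638, 638 and 676 in D2-13B6 (SE 0.038, edgeR adjusted p = 4.77e-09). Rps27a, which encodes ubiquitin fused to a ribosomal protein, had 592, 613 and 520 CPM in D2 and 775, 762 and 790 in D2-13B6. In each case the D2-13B6 libraries lay well above those of D2. Rpl27, the seventh, had 0.15 and was not called; its summed value was 0.20 ± 0.041 (SE) and was called. Among the 69 tested core genes elsewhere, 1 was called higher (Rpl5, with 0.28 as named and 0.04, not called, when summed) and 6 lower, with a median of -0.04.

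The other genes of chromosome 11 moved in the same direction: 811 of 1379 were called higher and 187 lower, with a median of 0.39. Rack1, a chromosome 11 gene whose product sits on the small subunit, rose by 0.41 ± 0.043 (SE). In B6-13D2 against B6 the median of these 1379 genes was -0.003 and that of the 7 ribosomal protein genes 0.13. Whether the D2-13B6 line carries another copy number of chromosome 11 was not tested.

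Rpsa had the lowest value of the abundant genes in D2-13B6 against D2. It stood at 112, 121 and 119 CPM in D2-13B6, below all D2 libraries (-0.68 ± 0.065 SE), but summed with its matching rows the value was -0.06 ± 0.04 (SE) and was not called. Rpl10-ps3 fell by 0.32 (SE 0.11), Rpl10a by 0.14 (SE 0.055) and Rpl14 by 0.14 (SE 0.034). Rps23, a decoding centre protein and the only core gene on chromosome 13, had 373, 348 and 314 CPM in D2 and 346, 340 and 324 in D2-13B6. As named it was called in neither congenic comparison, with 0.10 ± 0.089 (SE) on the B6 and -0.04 ± 0.089 (SE) on the D2 background. Summed with its matching rows, of which the named row holds 56.1%, it was called in B6-13D2 against B6 (0.18 ± 0.056 SE, edgeR adjusted p = 0.011) and not in D2-13B6 against D2 (-0.04). Without B6 replicate 3, D2 replicate 3 and B6-13D2 replicate 2 the named row was called in both, with 0.17 and -0.10. That setting leaves out libraries that stood apart in the core genes.

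A gene that follows the segment would change in opposite directions in the congenic comparisons, which share no library. Only 4 genes were called so, all higher with the D2 segment, against 7.33% of all genes tested, among them Rpl10a, Rpl14 and Rpl3l. Rpl14 had 473, 479 and 463 CPM in B6, 512, 546 and 560 in B6-13D2, 440, 431 and 434 in D2 and 396, 391 and 400 in D2-13B6. Neither pair of groups overlapped, and the log2 fold changes were 0.19 ± 0.034 and -0.14 ± 0.034 (SE). When matching rows were added, Rpl10a and Rpl14 were no longer called in D2-13B6 against D2, with -0.08 in both, and Rpl14 was no longer called in B6-13D2 against B6, with 0.06 (SE 0.046). Without B6 replicate 3, D2 replicate 3 and B6-13D2 replicate 2, 27 genes were called so, the highest count under any alternative. These libraries stood apart in the core genes themselves, so leaving them out narrows the spread of the genes tested. That count is therefore no independent support. Without D2 replicate 2 alone the count was 2, and without D2 replicate 3 it was 12.

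Called in the same direction in both congenic lines were 7 genes, Rpl10l, Rpl23, Rpl26, Rpl36al, Rpl38, Rpl39l and Rps27a, against 32.2% of all genes tested. The difference between both segment effects, which equals the congenic lines minus the parental strains, was called for 37 of 88 genes, 36 above and 1 below 0, against 64.5% of all genes tested, 31.1% above and 33.4% below 0. The gene called below 0 was Rpsa (-0.55), which was no longer called when summed with its matching rows (-0.01). With library totals only the difference was called for 74 genes, and with no filter for 61. All 7 chromosome 11 genes were among the 36, with a median of 0.54. Of the 1379 other genes tested on that chromosome, 732 were called above and 278 below 0 for this difference, with a median of 0.41. Rpl38, known from the skeletal defects of tail-short mice, had 148, 157 and 167 CPM in B6, 173, 242 and 205 in B6-13D2, 154, 147 and 136 in D2 and 174, 183 and 174 in D2-13B6. Each congenic group lay above its background strain, and the difference was 0.67.

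Promoters were looked at because the core genes moved together. The table of RefSeq promoters (GRCm38.p6) held 66 of the 92 genes, with 78 start sites. Windows from 30 bases before to 20 after the start are shown for a few genes with long, short or displaced runs, on the strand of the gene, with the longest run of pyrimidines in capitals:
Rpl7a: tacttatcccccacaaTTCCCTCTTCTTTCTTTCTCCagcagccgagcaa
Rpl38: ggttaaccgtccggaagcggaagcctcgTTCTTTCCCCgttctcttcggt
Rpl22l1: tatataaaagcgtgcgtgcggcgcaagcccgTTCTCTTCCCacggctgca
Rpl26: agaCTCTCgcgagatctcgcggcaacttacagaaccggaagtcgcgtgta
Rpl39l: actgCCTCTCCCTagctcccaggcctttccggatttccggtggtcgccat
Rpl7a, the gene with the longest run of those printed (21 bases), and Rpl38 lie at chr2:26910777-26910826 and chr11:114668550-114668599. Rpl22l1 lies at chr3:28805478-28805527, Rpl26 at chr11:68901536-68901585 and Rpl39l at chr16:10170198-10170247. A run of at least 8 pyrimidines within 10 bases before to 20 after the start was found in 30.8% of the 78 windows and in 11.2% of 32851 promoters. The run of Rpl39l lies upstream of its start and that of Rpl26 has 5 bases.

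Over 250 bases before to 50 after the start, on both strands, CCGGAA (the core of sites for ETS factors) was found in 47.4% of the ribosomal protein windows and 14.9% of all. AAGATGGC, part of sites for YY1, was found in 10.3% and 2.75%. TATAAA was found in 8.97% and 13.6%. These counts describe letters in a window; they show no binding.

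Of 49 ribosome biogenesis genes tested, 34 were called lower and 3 higher in D2 against B6, with a median of -0.17, where 30.3% of all genes tested were lower and 29.8% higher. In B6-13D2 against B6 the same list split into 13 higher and 13 lower with a median of 0.00, which lies near the shares over all genes tested (25.4% higher and 32.9% lower). In D2-13B6 against D2, 14 were higher and 7 lower with a median of 0.01, beside 27.6% higher and 29.7% lower of all genes tested. Nop10, a component of H/ACA particles that guide pseudouridylation, fell in D2 (-0.55 ± 0.076 SE) and rose in B6-13D2 (0.40 ± 0.072 SE). Ftsj3 and Pes1, both on chromosome 11, rose in D2-13B6 (0.56 ± 0.029 and 0.47 ± 0.033 SE).

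The list of other messenger RNAs with pyrimidine starts and of translation factors had 20 of 25 called lower and 1 higher in D2 against B6 (median -0.28). It had 9 higher and 5 lower in B6-13D2 against B6 (median 0.05) and 3 higher and 12 lower in D2-13B6 against D2 (median -0.07). Over all genes tested, the shares called higher and lower were 29.8% and 30.3%, 25.4% and 32.9%, and 27.6% and 29.7% in these comparisons. Gas5, the host of several small nucleolar RNAs, fell by 0.85 (SE 0.041) in D2. Vim, which fibroblasts also express strongly, went against most called genes of the list in D2 (up by 0.55) and in B6-13D2 (down by 1.49). In D2-13B6 it fell by 0.97, the direction of most called genes of the list.

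Of 15 regulators of ribosomal protein synthesis, 5 were called higher and 5 lower in D2 against B6, 5 and 5 in B6-13D2 against B6, and 7 and 4 in D2-13B6 against D2. The D2 against B6 counts lie near the shares over all genes tested, 29.8% higher and 30.3% lower, and so do those in B6-13D2 (25.4% and 32.9%). In D2-13B6 against D2 these shares were 27.6% higher and 29.7% lower. Myc, a transcription factor that raises ribosome production in many cells, had a mean of 58.7 CPM in D2, 42.5 in B6, 29.8 in D2-13B6 and 12.4 in B6-13D2. It was thus lowest in the group with the highest ribosomal protein share and highest in the group with the lowest share. B6 had more Myc and also a higher share than D2-13B6, so the middle groups did not keep the reverse order. The order of Myc over the groups was that of the summed fibroblast markers. Any part of Myc in the share was not tested. Eif4ebp1, an inhibitor of cap-dependent translation downstream of mTOR, rose by 0.65 (SE 0.051) in B6-13D2.

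The 77 mitochondrial ribosomal protein genes, all tested, served as a comparison. D2 against B6 gave 33 called lower and 4 higher (median -0.11). With the D2 segment on the B6 background there were 43 higher and 4 lower (median 0.15), and with the B6 segment on the D2 background 23 higher and 10 lower (median 0.06). The same shares over all genes tested apply, and the 23 lie near the 27.6% of all genes that rose in D2-13B6 against D2. Their share of the counts was 0.311% in B6, 0.367% in B6-13D2, 0.296% in D2 and 0.334% in D2-13B6. Among the genes outside the family whose log2 CPM over the 12 libraries was most like the summed ribosomal protein level were Pgam1 (Pearson's r = 0.994), Atp5j2 (0.991), Uck2 (0.991) and H2afz (0.990). The 12 libraries fall into 4 groups, so these values describe the pattern of the groups.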

How the data were processed

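The table the authors deposited gives expected counts, which are estimates and can be fractions, for each Ensembl gene in each library. Per the file headers and title they come from EMASE, which divides reads among matching loci. The submitters' processing notes name Bowtie 1.0.0, edgeR 3.34.1 and mm10 without roles; the annotation release, strand setting and filters are not given in the sources used here. Groups and replicate numbers came from the sample titles, and 0 columns were left unmapped.

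Gene symbols came from GENCODE M21 (GRCm38) by Ensembl ID: 42462 of 43346 IDs were found, and the other 884 held 0.361% of the counts. After rounding, edgeR 4.0.16 (R 4.3.3) fitted 4 group means over all 12 libraries with TMM scaling and its quasi-likelihood test. Low genes were removed by filterByExpr (minimum count 10), and p-values were adjusted by Benjamini-Hochberg over all genes at 0.05. Standard errors are the absolute log2 fold change over the square root of F. Rows that are not protein-coding were matched to coding sequences with BLAST 2.17.0 at 95% identity over 80% of the length, which gave 414 rows. Library totals of 22184196 to 36411799 were the depth. On counts simulated for D2 against B6, edgeR recovered 69.2% of genes changed by 0.5 (log2) and 88% of those changed by 1, with 9 false calls among 16752 genes. The simulation gave all genes the same spread (dispersion) and changed few of them. It held neither spread that differs between genes nor shifts of whole libraries, so its figures do not carry over to the real counts.

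The genes, the lists and the rule for the genes named (the 5 highest and lowest called in each comparison and a mean log2 CPM of 2 or more, those following the segment, those on chromosome 13, the 3 highest and lowest per kb, and genes fixed by role) were chosen with earlier results of these data known. Rps4l, fixed by role, is not analysed here. A few results that the rule or the lists would name are not reported here. Lists leave out Riok2, Snhg1 and Snhg8, not analysed here. The sums with sequence-matched rows, the counts without B6 replicate 3, D2 replicate 3 and B6-13D2 replicate 2 and those without chromosome 11 were added after the data were seen. The 3 libraries left out stood apart in the core genes themselves, while B6-13D2 replicate 1, with a median deviation of -0.115, was kept. Alternatives were DESeq2 1.42.0, other scalings and filters, a fold minimum, genes with whole counts, a replicate block, only the libraries compared, and each library left out in turn.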

Additional observations from a re-analysis of the deposited data

Results flagged for a closer look

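The change that comes with the segment differed between the B6 and D2 backgrounds, by edgeR's test of the difference itself, for 37 of 88 ribosomal protein genes, beside 64.5% of all genes tested. The count of ribosomal protein genes was 74 with library totals only and 61 with no filter. Because the segment effects have opposite alleles in the congenic lines, this difference equals the congenic lines minus the parental strains, and it cannot be told apart from anything that the congenic libraries share. Among the genes named in the report the difference, in log2 units, was 1.90 for Rpl39l, 0.858 for Rpl36, 0.713 for Rps12-ps3, 0.64 for Rpl10l and 0.534 for Rpl22l1. On chromosome 11 the 7 genes tested ran from 0.23 to 0.673. Among them were Rpl38 with 0.673, Rpl26 with 0.629, Rps27a with 0.626, Rpl23a with 0.521 and Rpl19 with 0.42. Rpl24 had 0.462, Rpl36al 0.42, Rpl39 0.347, Rpl5 0.336, Rps18 0.272, Rpl36a 0.251, Rpl3 0.242, Rpl22 0.2, Rpl11 0.189 and Rps25 0.148. Summed with their matching rows, Rpl5 had 0.14 and Rpl36 0.60, and Rpl24 had 0.12 and was no longer called. Rpsa was the only gene called below 0, with -0.546, and its sum with matching rows had -0.01 and was not called.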

How the results depend on the processing

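Of 3902 values of named genes under all alternatives, 3561 kept their direction and side of the threshold, 133 lost a call, 205 gained one and 3 turned: Rpl5 in D2 against B6 (-0.398) and Rpl9-ps6 in D2 against B6 (0.66) when summed with sequence-matched rows, and Rpl7 in the difference between segment effects (0.137) with library totals only. Requiring an absolute log2 fold change of 0.5 left 7 genes (D2 against B6), 6 (B6-13D2 against B6), 3 (D2-13B6 against D2), 11 (the difference) and 1 (following the segment). Only genes with whole counts gave 15, 13, 5, 8 and 1, since 18 of them were tested. With library totals only, the difference had 74 genes, and with no filter 61; library totals moved the median of all genes in that contrast from 0.0026 to 0.146. Without B6 replicate 3, D2 replicate 3 and B6-13D2 replicate 2 (the 3 libraries), D2-13B6 against D2 had 44. Genes following the segment numbered 7 with DESeq2, 8 with RLE size factors, 1 with library totals, 14 with no filter, 15 when genes needed a mean CPM of 1, 2 with -ps pseudogenes added and 27 without the 3 libraries. The causes were not tested.

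Leaving out each library in turn gave 67 to 78 genes for the parental strains, 40 (without B6-13D2 replicate 2) to 74 (without B6 replicate 3) in B6-13D2 against B6, 13 (without D2-13B6 replicate 3) to 26 in D2-13B6 against D2, 27 to 49 in the difference and 2 (without D2 replicate 2) to 12 (without D2 replicate 3) following the segment. The split in D2-13B6 against D2 was 9 higher and 18 lower when genes needed a mean CPM of 1, and 11 and 16 with only the libraries compared. The shares in B6, D2, B6-13D2 and D2-13B6 were 5.40%, 4.57%, 6.31% and 4.80% with -ps pseudogenes, 0.796%, 0.689%, 0.956% and 0.731% for genes with whole counts, 5.44%, 4.61%, 6.35% and 4.87% of protein-coding counts outside the mitochondrial genome, and 5.71%, 4.81%, 6.68% and 5.04% with sequence-matched rows. B6-13D2 had the highest share and D2 the lowest in each. With the replicate number as a block, counts were 75, 58, 20 and 36, and all 180 values of named genes kept their call; deviations of same-numbered libraries correlated at -0.0108 on average, so the numbers do not pair the libraries. Only the libraries compared was not run for the difference and for genes following the segment, which need all groups. Rpl3l and Rpl9-ps6 had the lowest levels per kb of transcript among the genes tested, and the part of depth in their values was not tested.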
